A study of Danio rerio with 8 samples.

Results

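The genes described here are 60 genes of the cell cycle and of DNA synthesis, chosen by name from a zebrafish gene count table of 35197 rows. All 60 were found by their gene symbol, none shares its symbol with another row, and all passed the filter on low counts that left 21447 rows for testing. They were divided by role into 20 genes of DNA synthesis, 4 regulators of the step from G1 into S phase, 7 cyclins and 29 mitotic genes.

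RNA came from 8 single whole larvae at 6 days post fertilization (dpf), 4 wild-type siblings and 4 zygotic homozygotes for the G177A allele of osgep (genotype osgep G177A/G177A). The labels name no treatment, and say that embryos came from single and group crosses. The osgep product is the catalytic member of KEOPS, an enzyme complex that adds the N6-threonylcarbamoyl mark to transfer RNA. Each library is 1 larva, so every value below averages over all tissues of the animal; the labels call the tissue whole embryo. Of 12 marker genes of muscle, lens, liver, neurons, skin, red cells, exocrine pancreas, gut, rods, islets and myelin, 11 were found and tested; try, the exocrine pancreas marker, was not found by its symbol. None of the 11 passed, and all 11 had log2 fold changes below 0, with summed levels of 40130 to 81000 CPM in wild-type larvae and 28050 to 54930 CPM in homozygotes. Most of each sum came from the muscle genes actc1b and mylpfa and the skin gene krt4, with wild-type means of 38990, 12350 and 10300 CPM. The highest wild-type mean among the others was 1024 CPM, for rho, so the sums say little of the other tissues.

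Cell division runs as an ordered programme. Before S phase the MCM helicase is loaded on DNA, and during S phase the polymerases, their clamp PCNA and the enzymes that make deoxynucleotides copy the genome. Cyclin D and cyclin E drive cells through G1 into S phase, and E2F transcription factors switch on the DNA synthesis genes. Cyclin A and cyclin B with CDK1 drive mitosis, in which Aurora and Polo kinases, kinesins, condensin and the spindle checkpoint separate the chromosomes. In a larva of this age, dividing cells are found mainly in growth zones such as the margin of the retina, the ventricular zones of the brain, the gut and the blood-forming tissues. Which cells the RNA of these genes came from was not measured. In RNA of whole larvae, fewer dividing cells and less RNA per dividing cell cannot be told apart.

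Library totals ranged from 14398812 to 19052599 estimated counts. The 60 genes took 0.149%, 0.134%, 0.136% and 0.147% of them in wild-type larvae and 0.185%, 0.154%, 0.152% and 0.163% in homozygotes. In this share, before any scaling between libraries, each homozygote lay above each wild-type larva. Most rows lay higher in homozygotes on that scale, so the share is not particular to these genes. With libraries scaled by totals, 19.4% of all tested rows had log2 fold changes, homozygous against wild-type, below 0. The median was then 0.40 over all tested rows and 0.14 over the 60 genes. Levels are given as CPM, the count of a gene per 1e6 counts of the library after TMM scaling, which sets the bulk of genes equal between libraries. Where 4 values stand for a genotype they are in the order of replicates 1 to 4. CPM is not divided by transcript length, so levels are not compared between genes. Single counts of a member ranged from 7 to 4289, and 1 member, rrm2, stayed under 50 counts in every larva. osgep itself measured 7.46, 11.5, 10.1 and 5.55 CPM across the wild-type larvae and 2.60, 3.68, 1.64 and 2.99 CPM across the homozygotes, groups that did not overlap (log2 fold change -1.66, SE 0.29, adjusted p = 0.0187). Adjusted p-values are Benjamini-Hochberg values of the edgeR quasi-likelihood fit unless another tool is named. Wild-type 1 and homozygote 2 lay nearest to the other group in their TMM factors, at 1.07 and 0.951, where the other wild-type libraries had 0.732 to 0.900 and the other homozygotes 1.19 to 1.23. These 2 libraries were picked from these data, not from the labels. Leaving out the larvae nearest to the other group widens the difference between the groups by construction. Adjusted p-values without these 2 libraries therefore cannot be read as significance levels. Results without them are given for medians, counts of calls and some of the genes.

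Of the 60 genes, 1 fell in the homozygotes, 0 rose and 59 did not pass the threshold of an adjusted p below 0.05. Over all tested rows 1.05% passed (0.284% higher, 0.769% lower), so the members' count is near the background. The gene that fell was cdc25b, which encodes a phosphatase that activates CDK1 at the entry into mitosis. At an unadjusted p under 0.05 there were 15 members, 4 higher and 11 lower, against 22.3% of all rows (9.84% higher, 12.4% lower). DESeq2 called 5 of the 60 (2 higher, 3 lower), beside 8% of all rows called by that tool (2.75% higher, 5.25% lower).

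After TMM scaling fitted values lay mostly below 0, though the genotypes overlapped in mean level per larva. The log2 fold change was below 0 for 41 of the 60 members, against 48.2% of all rows. Its median was -0.25 over the 60 members and 0.02 over all tested rows. Without wild-type 1 and homozygote 2 these medians were -0.40 and 0.07, with -0.36 for DNA synthesis genes, -0.42 for mitotic genes, -0.61 for cyclins and 0.24 for the G1/S regulators. With all 8 larvae the median by role was -0.22 for DNA synthesis genes, -0.29 for mitotic genes, -0.39 for cyclins and 0.14 for the G1/S regulators. The cyclins were split, 3 above 0 and 4 below, so their median stands for no common direction. For the mitotic genes joined with the cyclins other than ccne1, ccne2 and ccnd1 the median was -0.33, with 26 of 33 below 0. No member changed by more than 1 on the log2 scale in either direction. Values ran from -0.90 for cdc25b to 0.81 for e2f1. Members vary together, so counts of members by direction were not tested. Per larva, the mean log2 CPM of the 60 genes was set against its wild-type mean. It stood at -0.08, -0.06, 0.04 and 0.10 in wild-type larvae and at -0.16, 0.06, -0.39 and -0.15 in homozygotes. These groups overlapped, and the homozygous mean of -0.16 was smaller in size than its SD of 0.18. Scaling by library totals alone moved the median of all rows to 0.40 and that of the 60 members to 0.14, so the members' median lay below that of all rows under either scaling while its sign turned. With library totals 19.4% of all rows and 21 of the 60 members had log2 fold changes below 0. Directions below are therefore read after TMM scaling.

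**Figure D1:**
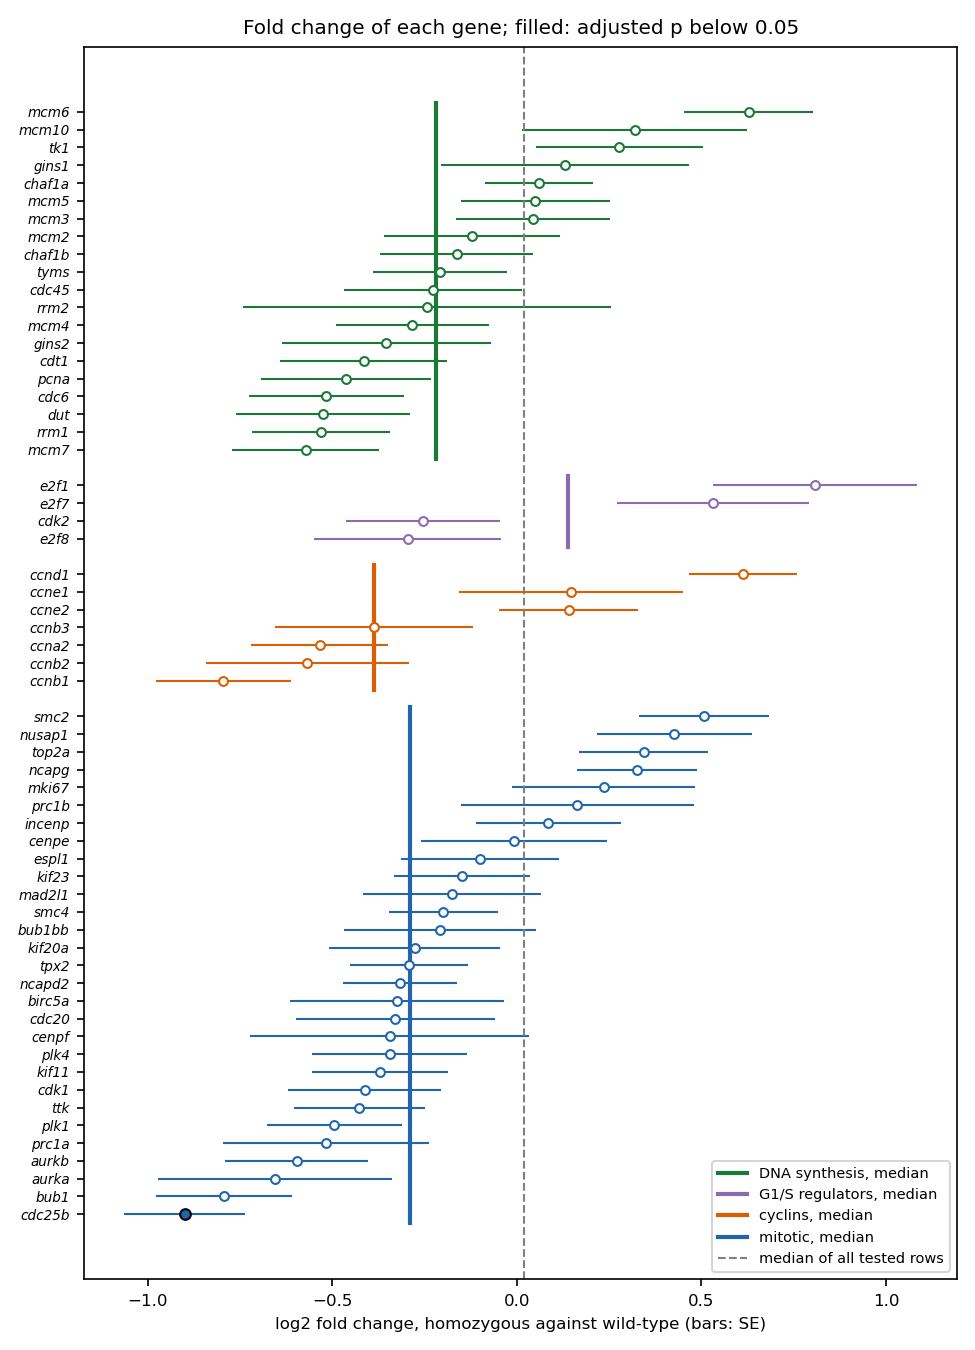
Fitted log2 fold change of each of the 60 genes, homozygous against wild-type larvae (x axis), grouped by role, with bars of 1 SE. Thick lines mark the median of each role group and the dashed line the median of all tested rows at 0.02; only cdc25b, at -0.90, is filled as past the threshold.

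Among the DNA synthesis genes 0 rose, 0 fell and 20 did not pass by edgeR, where 1.05% of all rows passed. The count at an unadjusted p under 0.05 was 5, or 25% against 22.3% of all rows, of which mcm6 was higher and mcm7, rrm1, cdc6 and dut were lower. DESeq2 called mcm6 alone among the 20, higher in homozygotes. The replication clamp gene pcna, the usual marker of S phase, measured 166, 329, 267 and 247 CPM across the wild-type larvae and 184, 243, 160 and 144 CPM across the homozygotes. Wild-type 1 lay among the homozygotes and homozygote 2 just below wild-type 4, so the groups overlapped. The log2 fold change of pcna was -0.46 (SE 0.23, adjusted p = 0.250). Without wild-type 1 and homozygote 2, larvae picked from these data, it was -0.76 (adjusted p = 0.0103), in a setting where 18.3% of all rows passed. With libraries scaled by totals pcna stood at -0.06 (adjusted p = 0.795).

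The subunits of the MCM helicase, which act together as a ring of mcm2 to mcm7 products, had fitted values on both sides of 0. mcm6 measured 44.7, 49.3, 32.6 and 40.8 CPM across the wild-type larvae. Across the homozygotes it measured 82.6, 54.6, 60.6 and 60.6 CPM. Each homozygote lay above each wild-type larva, and homozygote 2 was the lowest of its group. This gave a log2 fold change of 0.63 (SE 0.18, adjusted p = 0.0824), which did not pass; DESeq2 gave 0.0261.

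mcm7, a subunit of the same ring, had the opposite sign. It measured 71.2, 138, 99.3 and 88.1 CPM across the wild-type larvae and 71.9, 75.7, 55.4 and 63.8 CPM across the homozygotes. The groups overlapped only through wild-type 1. Its log2 fold change was -0.57 (SE 0.20, adjusted p = 0.128). The other ring subunits lay closer to 0, at log2 fold changes of -0.12 for mcm2, 0.04 for mcm3, -0.28 for mcm4 and 0.05 for mcm5, each with an SE between 0.20 and 0.24. mcm2 measured 70.1, 146, 75.2 and 89.1 CPM across the wild-type larvae and 114, 92.5, 70.7 and 72.1 CPM across the homozygotes. Its sign turned to 0.30 with libraries scaled by totals and to 0.16 without wild-type 2, the larva with the highest value.

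The ratio of 2 genes in the same larva does not depend on how libraries are scaled. The ratio of mcm6 to mcm7 was 0.627, 0.357, 0.328 and 0.463 across the wild-type larvae and 1.15, 0.721, 1.09 and 0.950 across the homozygotes. No wild-type larva reached the lowest homozygote, with means of 0.444 ± 0.135 and 0.979 ± 0.192 (SD, n = 4 each). Set against the mean of the other 5 ring subunits, mcm6 stood at 0.791, 0.453, 0.489 and 0.572 in wild-type larvae and at 1.05, 0.770, 1.12 and 1.07 in homozygotes. Here homozygote 2 fell just below wild-type 1, so the groups overlapped. These ratios are not per transcript length and say nothing of which subunit is more abundant; the genes were picked after their values were seen, so the ratios were not tested.

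Genes that load and fire origins had fitted values on both sides of 0. cdc6, which loads the helicase, measured 10.2, 17.0, 12.3 and 16.4 CPM across the wild-type larvae and 12.5, 9.69, 8.21 and 8.70 CPM across the homozygotes, with homozygote 1 inside the wild-type range (log2 fold change -0.52, SE 0.21, adjusted p = 0.173). cdt1, its partner in loading, had a log2 fold change of -0.42 (SE 0.23). mcm10, cdc45, gins1 and gins2, whose products activate the helicase, had log2 fold changes of 0.32, -0.23, 0.13 and -0.35 at mean levels of 2.81 to 7.68 CPM in wild-type larvae.

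Among genes for deoxynucleotide supply, rrm1, the large subunit of ribonucleotide reductase, measured 86.9, 139, 125 and 116 CPM across the wild-type larvae and 85.0, 100, 65.3 and 72.2 CPM across the homozygotes. Wild-type 1 again lay among the homozygotes. The fitted log2 fold change was -0.53 (SE 0.19, adjusted p = 0.130). It was -0.75 (adjusted p = 0.00822) without wild-type 1 and homozygote 2, larvae picked from these data, where 18.3% of all rows passed. With libraries scaled by totals rrm1 stood at -0.14 (adjusted p = 0.523). dut, whose product keeps uracil out of DNA, had a log2 fold change of -0.53 (SE 0.24). tyms, for thymidylate synthase, stood at -0.21 (SE 0.18) and tk1, for thymidine kinase, at 0.28 (SE 0.23). rrm2, the small reductase subunit, was counted between 7 and 27 times per larva, and its value of -0.24 (SE 0.50) is the least precise of the 60. The chromatin assembly genes chaf1a and chaf1b, whose products place histones behind the fork, stood at 0.06 (SE 0.15) and -0.16 (SE 0.21).

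Among the regulators of the G1 to S step 0 of 4 passed, where 1.05% of all rows passed. e2f1, which encodes an activating E2F factor, measured 5.55, 4.35, 5.29 and 4.85 CPM across the wild-type larvae and 11.4, 4.48, 7.68 and 11.6 CPM across the homozygotes. Homozygotes 1, 3 and 4 lay above all wild-type larvae and homozygote 2 inside their range. This gave a log2 fold change of 0.81 (SE 0.28, adjusted p = 0.124). Without homozygote 2 it passed (adjusted p = 0.0307), and without wild-type 1 and homozygote 2 its adjusted p was 0.0111. Both larvae were picked from these data, and 5.31% and 18.3% of all rows passed in these settings, in that order. e2f7 and e2f8 encode the E2F factors that repress the same targets. e2f7 measured 3.93, 4.52, 2.75 and 3.27 CPM across the wild-type larvae and 4.36, 4.25, 4.88 and 7.34 CPM across the homozygotes, with a log2 fold change of 0.53 (SE 0.26, adjusted p = 0.243).

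e2f8 measured 8.19, 6.49, 11.3 and 8.47 CPM across the wild-type larvae and 5.72, 5.50, 6.13 and 10.7 CPM across the homozygotes, with homozygote 4 far above the other homozygotes. Its log2 fold change was -0.30 (SE 0.25, adjusted p = 0.510), and 0.09 with libraries scaled by totals. cdk2, the kinase partner of cyclin E and cyclin A, measured 11.3, 18.7, 14.9 and 19.9 CPM across the wild-type larvae and 14.4, 16.6, 10.5 and 12.8 CPM across the homozygotes. Its groups overlapped widely (log2 fold change -0.26, SE 0.21, adjusted p = 0.491), and the sign turned to 0.14 with library totals. In RefSeq's gene order of the GRCz12tu assembly, in which 59 of the 60 genes were placed, e2f7 lies 87 genes from osgep and mcm10 101 genes from it on the same chromosome. These are the 2 members on the osgep chromosome, and the part of linked parental alleles in their values was not tested.

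**Figure D2:**
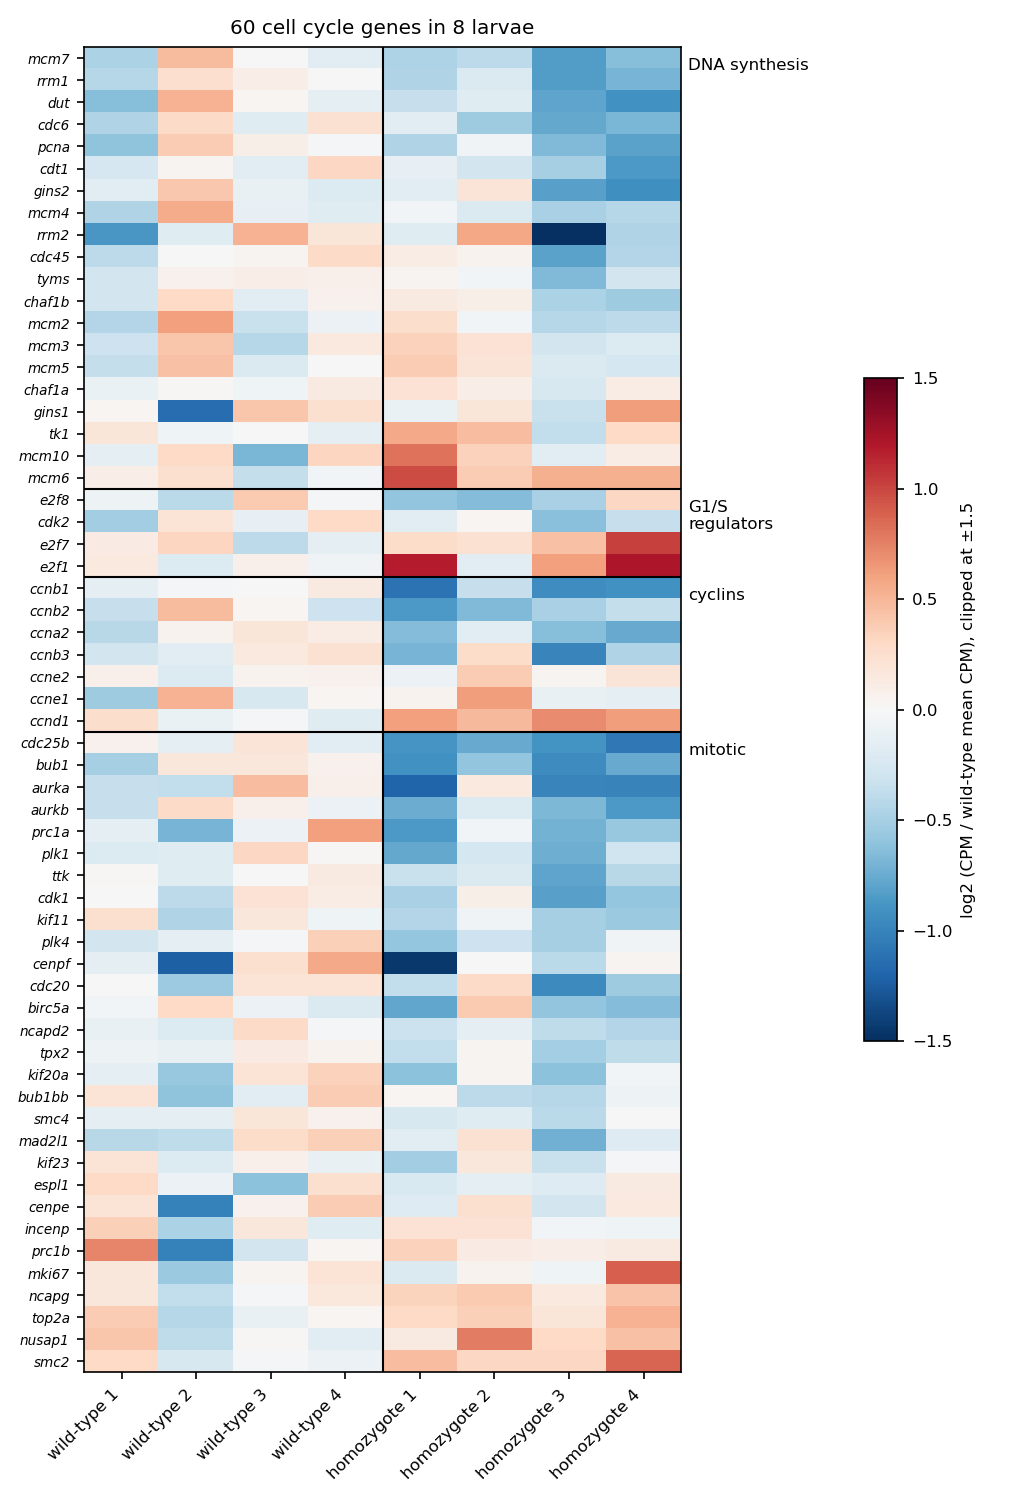
Level of each of the 60 genes (rows, by role and then by fold change) in each of the 8 larvae (columns), as log2 of CPM over the wild-type mean, with red above and blue below that mean and colours clipped at 1.5 either way. Wild-type 2 is red in many DNA synthesis rows and blue in many mitotic rows, and homozygote 2 is paler than the other homozygotes in the mitotic rows.

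Of the 7 cyclins 0 passed by edgeR, where 1.05% of all rows passed. At an unadjusted p under 0.05 there were 3 (1 higher, 2 lower), or 42.9% against 22.3% of all rows. The groups did not overlap for 3 of the 7 (1 higher, 2 lower), against 10.4% of all rows. These counts over 7 genes were not tested. Fitted values lay above 0 for ccnd1, ccne1 and ccne2 and below 0 for the mitotic cyclins. ccnd1, for cyclin D1, which couples growth signals to the cell cycle, measured 61.0, 47.6, 50.2 and 45.1 CPM across the wild-type larvae. Across the homozygotes it measured 78.0, 71.7, 83.3 and 78.9 CPM. Every homozygote lay above every wild-type larva, with wild-type 1 the highest of its group and homozygote 2 the lowest of its own. Its log2 fold change was 0.61 (SE 0.15, adjusted p = 0.0587), just short of the threshold. DESeq2 called it (adjusted p = 0.00380), and its adjusted p lay between 0.00380 and 0.191 among the alternatives. ccnd2a, for a cyclin D2, which is outside the 60 genes and was chosen after its values were seen, stood at 0.74 (SE 0.21, adjusted p = 0.0842). The cyclin E genes ccne1 and ccne2, which act at the start of S phase, stood at 0.15 (SE 0.30) and 0.14 (SE 0.19). Both values were smaller than their SE, and ccne1 turned to -0.18 without wild-type 1 and homozygote 2.

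ccnb1, for cyclin B1, the cyclin that drives CDK1 into mitosis, measured 20.9, 22.7, 22.9 and 25.0 CPM across the wild-type larvae. Across the homozygotes it measured 10.6, 17.96, 12.03 and 12.2 CPM. Homozygotes 1, 3 and 4 were well below the wild-type larvae, and homozygote 2 lay between. The fitted log2 fold change was -0.80 (SE 0.18, adjusted p = 0.0553), which did not pass. DESeq2 gave ccnb1 an adjusted p of 0.00437. Among the alternatives its adjusted p lay between 0.00360 and 0.165. The low end came from leaving out wild-type 1 and homozygote 2, larvae picked from these data, where 18.3% of all rows passed. That value is not a significance level.

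The remaining mitotic cyclins had the sign of ccnb1. ccna2, for cyclin A2, measured 18.4, 25.6, 27.8 and 26.4 CPM across the wild-type larvae and 15.6, 21.9, 15.7 and 14.6 CPM across the homozygotes (log2 fold change -0.53, SE 0.19, adjusted p = 0.127). ccnb2 measured 2.75, 4.85, 3.55 and 2.80 CPM across the wild-type larvae and 1.93, 2.21, 2.49 and 2.71 CPM across the homozygotes (log2 fold change -0.57, SE 0.27, adjusted p = 0.240). Its groups did not overlap, but wild-type 1 and homozygote 4 were nearly level. ccnb3 stood at -0.39 (SE 0.27). The ratio of ccnd1 to ccnb1 in the same larva, which no scaling changes, was 2.92, 2.10, 2.19 and 1.80 across the wild-type larvae and 7.37, 3.99, 6.93 and 6.47 across the homozygotes. The homozygous mean was 2.75 times the wild-type mean; the pair was picked after its values were seen and was not tested.

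**Figure D3:**
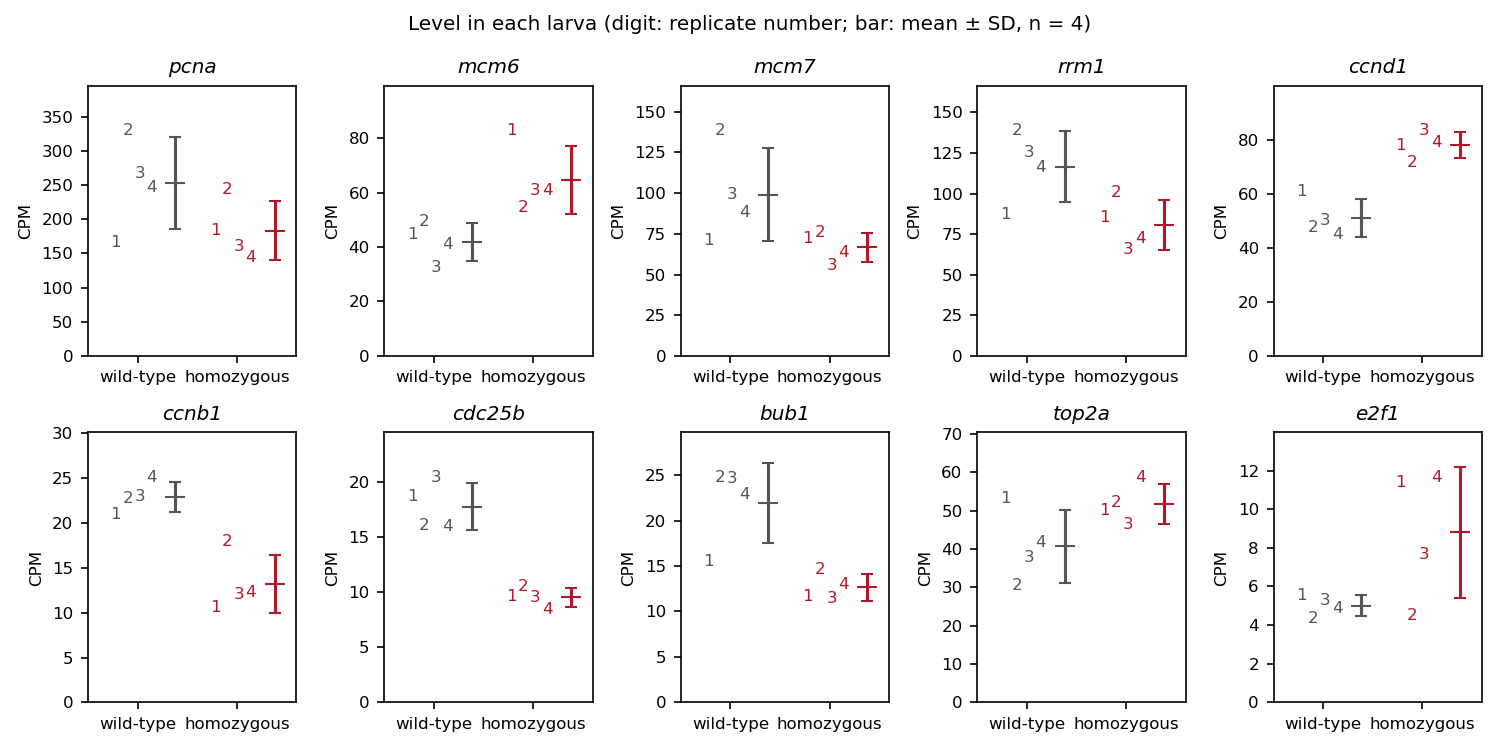
Level in CPM (y axis from 0) of 10 genes in each larva, with digits for the replicate number and bars for the mean ± SD of 4 larvae per group. The groups are apart for mcm6, ccnd1, ccnb1, cdc25b and bub1, and overlap for pcna, mcm7, rrm1, top2a and e2f1.

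Of the 29 mitotic genes 1 fell, 0 rose and 28 did not pass, where 0.769% of all rows were called lower and 0.284% higher. cdc25b measured 18.7, 16.1, 20.4 and 16.0 CPM across the wild-type larvae and 9.63, 10.5, 9.55 and 8.46 CPM across the homozygotes. Each homozygote lay far below each wild-type larva, with a tighter spread (17.8 ± 2.15 against 9.54 ± 0.850 CPM, SD, n = 4 each). The gene was 1.87-fold lower (log2 fold change -0.90, SE 0.16, adjusted p = 0.0224). The call did not survive leaving out wild-type 2, wild-type 3, homozygote 1, homozygote 3 or homozygote 4, with adjusted p-values up to 0.103. Nor did it survive scaling by library totals (log2 fold change -0.53, adjusted p = 0.114), while the direction was the same in each of the 17 alternatives run.

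Of all 29 mitotic genes 22 had log2 fold changes below 0, and 6 (1 higher, 5 lower) had an unadjusted p under 0.05, or 20.7% against 22.3% of all rows. With libraries scaled by totals 11 of the 29 lay below 0. bub1, for a kinase of the spindle checkpoint, measured 15.5, 24.7, 24.7 and 22.9 CPM across the wild-type larvae and 11.7, 14.6, 11.4 and 13.0 CPM across the homozygotes. The groups did not overlap, with wild-type 1 the closest to the homozygotes. Its log2 fold change was -0.79 (SE 0.18, adjusted p = 0.0553), and DESeq2 called it (adjusted p = 0.00444).

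Among the Aurora and Polo kinase genes, aurkb, of the chromosomal passenger complex, measured 15.0, 23.2, 20.1 and 17.98 CPM across the wild-type larvae and 11.4, 16.6, 11.9 and 10.5 CPM across the homozygotes (log2 fold change -0.60, SE 0.19, adjusted p = 0.113). plk1, the main Polo kinase of mitosis, measured 22.04, 22.5, 31.6 and 25.8 CPM across the wild-type larvae and 15.0, 21.3, 15.3 and 20.8 CPM across the homozygotes (log2 fold change -0.49, SE 0.18, adjusted p = 0.141). aurkb overlapped between the groups through wild-type 1 and homozygote 2, and plk1 did not overlap but with homozygotes 2 and 4 close below the wild-type larvae. aurka, the Aurora kinase of the spindle poles, stood at -0.66 (SE 0.32) and plk4, which starts centriole duplication, at -0.34 (SE 0.21).

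ttk, for a checkpoint kinase, measured 13.2, 11.5, 13.1 and 14.3 CPM across the wild-type larvae and 10.3, 11.2, 7.55 and 9.72 CPM across the homozygotes (log2 fold change -0.43, SE 0.18, adjusted p = 0.180). The groups did not overlap, though homozygote 2 was close below wild-type 2. cdk1, the mitotic kinase itself, measured 24.0, 18.4, 28.2 and 26.04 CPM across the wild-type larvae and 17.2, 25.6, 13.8 and 16.1 CPM across the homozygotes. Homozygote 2 lay at the wild-type level and wild-type 2 near the homozygotes, so the groups of cdk1 overlapped (log2 fold change -0.41, SE 0.21, adjusted p = 0.255). With library totals the values of plk4, bub1bb, mad2l1 and espl1 turned to 0.04, 0.15, 0.19 and 0.26. After TMM scaling the checkpoint genes bub1bb and mad2l1 stood at -0.21 (SE 0.26) and -0.18 (SE 0.24). cdc20, which activates the anaphase-promoting complex, stood at -0.33 (SE 0.27), and espl1, for the separase that cuts cohesin, at -0.10 (SE 0.21).

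Among genes for chromosome structure 0 passed. smc2, for a core condensin subunit, measured 33.0, 22.8, 26.3 and 25.2 CPM across the wild-type larvae and 36.9, 33.2, 33.2 and 49.2 CPM across the homozygotes. The groups did not overlap, with wild-type 1 close below homozygotes 2 and 3 (log2 fold change 0.51, SE 0.18, adjusted p = 0.128). The other condensin genes had values on both sides of 0 after TMM scaling, with ncapg at 0.33 (SE 0.16), smc4 at -0.20 (SE 0.15) and ncapd2 at -0.32 (SE 0.15). With library totals they stood at 0.68, 0.18 and 0.06, in that order. top2a, for the topoisomerase that untangles chromosomes, measured 53.2, 30.4, 37.8 and 41.6 CPM across the wild-type larvae and 49.9, 52.0, 46.4 and 58.6 CPM across the homozygotes. Wild-type 1 lay among the homozygotes (log2 fold change 0.34, SE 0.17, adjusted p = 0.261). Without wild-type 1 and homozygote 2 the log2 fold change of top2a was 0.52 (adjusted p = 0.0552).

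mki67, for the Ki-67 protein that coats mitotic chromosomes and marks dividing cells, measured 28.1, 17.0, 25.7 and 28.8 CPM across the wild-type larvae. Across the homozygotes it measured 21.4, 25.8, 23.8 and 46.4 CPM. Only homozygote 4 lay above the wild-type range. The log2 fold change of 0.23 (SE 0.25, adjusted p = 0.605) turned to -0.06 without homozygote 4. Without wild-type 1 and homozygote 2 that of mki67 was 0.37 (adjusted p = 0.463). The spindle and cytokinesis genes kif11, kif23, kif20a, cenpe, cenpf, tpx2, nusap1, prc1a and prc1b ran from -0.52 for prc1a to 0.43 for nusap1, and the passenger complex genes birc5a and incenp stood at -0.33 and 0.08; none passed.

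The sums of both groups of genes varied between larvae of the same genotype. In the summed level of the 20 DNA synthesis genes, the wild-type larvae had 717, 1257, 924 and 936 CPM and the homozygotes had 918, 919, 672 and 694 CPM. The summed level of the 29 mitotic genes was 536, 428, 559 and 549 CPM across the wild-type larvae and 437, 532, 411 and 513 CPM across the homozygotes. Both sums overlapped between the groups. Wild-type 2 was the highest wild-type larva for 12 of the 20 DNA synthesis genes and the lowest for 20 of the 29 mitotic genes. Among homozygotes, homozygote 2 was the highest for 18 of the 29 mitotic genes, homozygote 1 for 13 of the 20 DNA synthesis genes, and homozygote 3 was the lowest for 13 genes of each of these 2 groups.

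The ratio of the mitotic to the DNA synthesis sum, free of library scaling, was 0.748, 0.340, 0.606 and 0.587 across the wild-type larvae and 0.476, 0.578, 0.611 and 0.739 across the homozygotes. The means were 0.570 ± 0.170 and 0.601 ± 0.108 (SD, n = 4 each), so the spread within each genotype exceeded the difference between them. Abundant genes weigh most in this ratio: pcna alone had a wild-type mean of 252.2 CPM, where the DNA synthesis sum had 958.5 CPM. The sum of the 7 cyclins was 118, 117, 122 and 118 CPM across the wild-type larvae and 120, 136, 127 and 124 CPM across the homozygotes. Within that sum ccnd1 was higher and ccnb1, ccna2 and ccnb2 lower in mean level in homozygotes. Across the 60 genes the highest wild-type larva exceeded the lowest by 1.63-fold at the median, from 1.18-fold for tpx2 to 3.48-fold for cenpf.

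**Figure D4:**
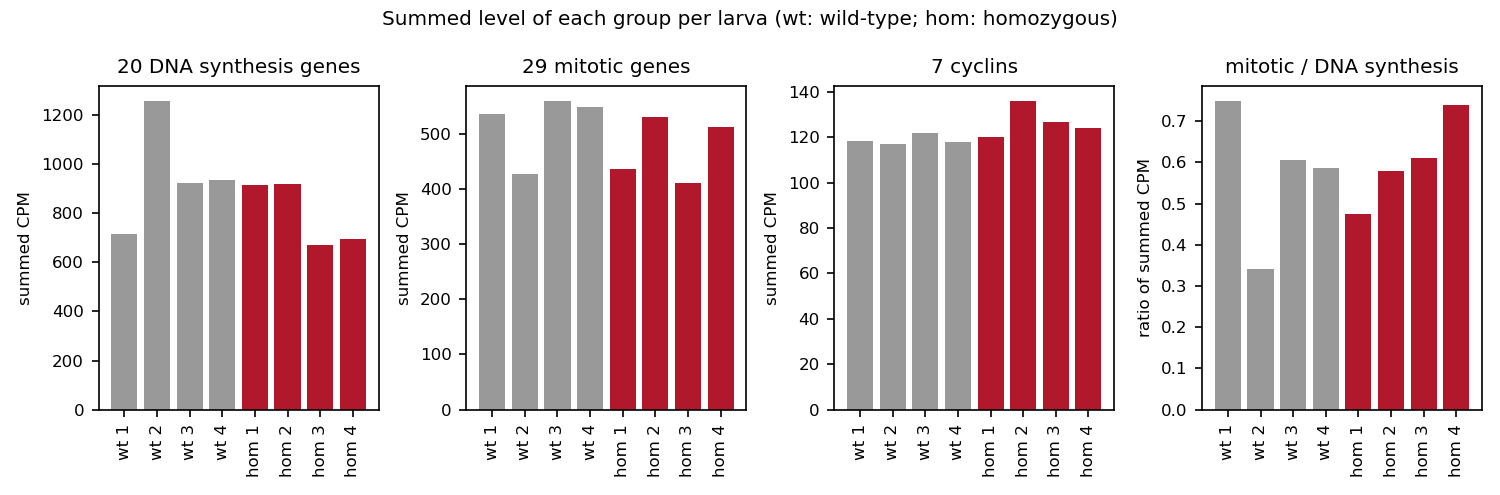
Summed CPM per larva of the 20 DNA synthesis genes, the 29 mitotic genes and the 7 cyclins, and the ratio of the mitotic to the DNA synthesis sum, with 1 bar per larva and axes from 0. Wild-type 2 has the highest DNA synthesis sum at 1257 CPM and the lowest ratio at 0.340.

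The groups did not overlap for 9 of the 60 members, or 15%, against 10.4% of all tested rows (5.5% higher, 4.95% lower). The 3 higher were mcm6, ccnd1 and smc2 and the 6 lower were ccnb1, ccnb2, cdc25b, plk1, bub1 and ttk. By role the 9 were 1 of 20 DNA synthesis genes, 5 of 29 mitotic genes, 3 of 7 cyclins and 0 of 4 G1/S regulators. Calls depended on which libraries were in. Without wild-type 1 edgeR called 10 of the 60 (9.76% of all rows), without homozygote 2 it called 9 (5.31% of all rows), and without both it called 15 (18.3% of all rows, 7.86% higher and 10.5% lower). The 15 were mcm6, ccnd1, smc2 and e2f1, higher, and pcna, mcm7, rrm1, dut, ccna2, ccnb1, cdc25b, plk1, aurka, aurkb and bub1, lower. With any 1 of wild-type 2, wild-type 3, homozygote 1, homozygote 3 or homozygote 4 left out, edgeR called 0 members, where 0.328%, 0.173%, 0.266%, 0.318% and 0.484% of all rows passed, in that order. Without wild-type 4 it called cdc25b alone (1.4% of all rows). cdc25b was also the 1 member called by limma voom (0.634% of all rows) and with the replicate number as a block (1.55%), and with library totals 0 members were called (0.574%).

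**Figure D5:**
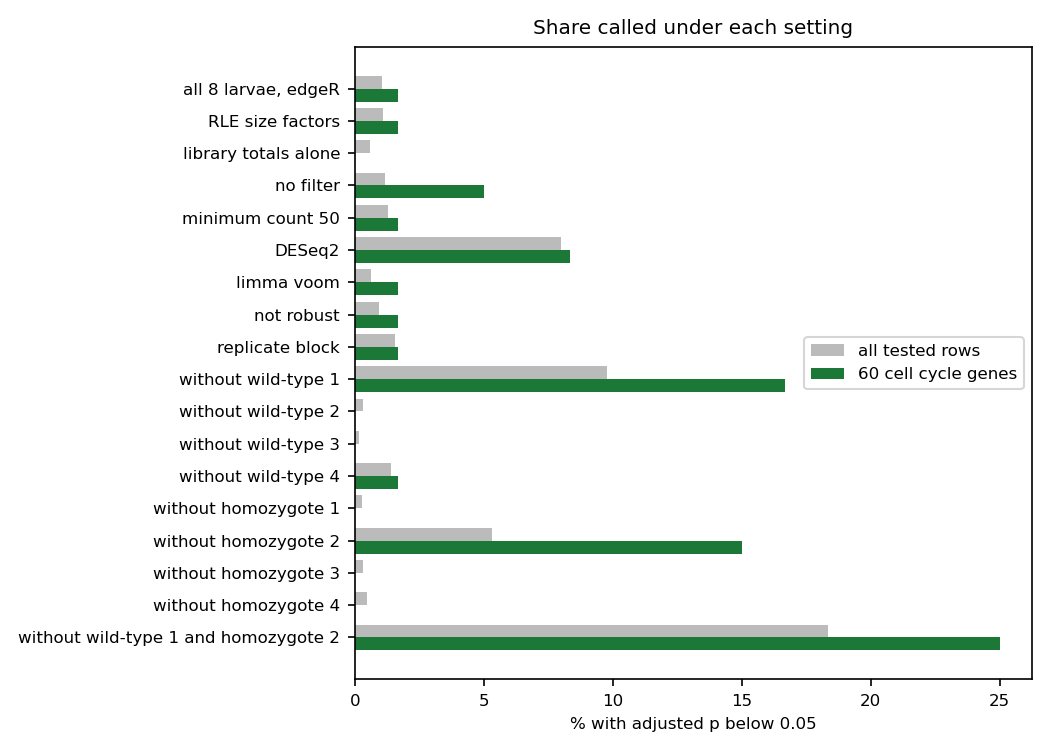
Share of all tested rows (grey) and of the 60 genes (green) with an adjusted p below 0.05 under each setting, in percent (x axis from 0). With all 8 larvae 1.67% of the members and 1.05% of all rows passed, and without wild-type 1 and homozygote 2 the shares were 25.0% and 18.3%.

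Other genes of the same pathways were read from the same fit. Of 40 further replication genes (origin recognition, polymerases, clamp loader and others) 0 passed, with a median log2 fold change of 0.02, and of 49 tested further mitotic genes 0 passed, with a median of -0.01. Both medians lay near that of all rows and above those of the DNA synthesis and mitotic members, and their shares at an unadjusted p under 0.05 stand beside 22.3% of all rows. The further replication genes had 8 of 40 at that level (6 higher, 2 lower) and the further mitotic genes 5 of 49 (1 higher, 4 lower). Of 12 tested further G1 cyclins, kinases and E2F, DP and MYC factors 0 passed, and 6 (2 higher, 4 lower), or 50%, had an unadjusted p under 0.05. The groups did not overlap for 0 of the 40, 2 of the 49 (4.08%) and 1 of the 12 (8.33%), against 10.4% of all rows. These shares lay below that of all rows, where the share of the 60 members lay above it. Of 18 rows with a histone symbol only hist2h2l was abundant enough to test (log2 fold change -0.72, SE 0.22, adjusted p = 0.0935).

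Of 27 tested inhibitors and exit genes of the cell cycle 1 rose, 0 fell and 26 did not pass, where 1.05% of all rows passed. Of the 27, 17 had log2 fold changes below 0. At an unadjusted p under 0.05 there were 7 (1 higher, 6 lower), or 25.9% against 22.3% of all rows. The groups did not overlap for 7 of the 27 (2 higher, 5 lower), or 25.9% against 10.4% of all rows (5.5% higher, 4.95% lower). Those lower with the smallest p, named after their values were seen, were gadd45ba at -1.02 (SE 0.23, adjusted p = 0.0537) and cdkn1bb, for a CDK inhibitor of the p27 family, at -0.63 (SE 0.15, adjusted p = 0.0554). The gene that rose was cdkn1a, for the CDK inhibitor p21, a target of p53 that halts cells before S phase. It measured 6.00, 7.89, 8.38 and 12.1 CPM across the wild-type larvae and 20.8, 14.9, 17.6 and 17.1 CPM across the homozygotes. Every homozygote lay above every wild-type larva. The gene was 2.05-fold higher (log2 fold change 1.04, SE 0.21, adjusted p = 0.0392), which no longer passed when wild-type 2, wild-type 3, homozygote 1, homozygote 3 or homozygote 4 was left out, where the adjusted p of cdkn1a reached 0.142. It held with libraries scaled by totals (adjusted p = 0.0450).

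Markers of tissues that hold dividing cells, or that changed in these larvae, were read beside these results. Of 19 tested neural progenitor and retinal margin markers 0 passed, with 7 log2 fold changes above 0 and 12 below. Their summed level ranged from 349 to 472 CPM in wild-type larvae and from 260 to 438 CPM in homozygotes. The genes fabp7a and gfap weighed most in it, with wild-type means of 95.97 and 76.06 CPM. The next highest was notch1a at 32.3 CPM. Across homozygotes fabp7a ranged from 23.4 to 109 CPM and gfap from 32.45 to 116 CPM, so the sum says less of the other markers. Of 11 tested markers of the thymus, lymphoid cells and blood progenitors 0 passed, with 3 above 0 and 8 below. Their summed levels were 57.9 to 72.0 and 49.5 to 61.1 CPM. Of 15 leukocyte markers 8 fell, where 0.769% of all tested rows were called lower, and all 15 lay below 0. The leukocyte list was chosen with earlier results of these data known, so this count is a description and carries no weight as a test. The leukocyte sums were 650 to 1447 CPM in wild-type larvae and 244 to 376 CPM in homozygotes, groups that did not overlap. Of 7 tested erythroid markers 0 passed, all 7 had log2 fold changes below 0, and their sums were 549 to 1227 and 159 to 584 CPM; hbba1, an adult globin gene on that list, was at 0 in all larvae. Germ cell markers summed to 0.986 to 5.78 CPM in wild-type larvae and 3.46 to 7.76 CPM in homozygotes, and the 3 abundant enough to test lay above 0 without passing. The part of these cell types in the values of the 60 genes was not tested.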

How the data were processed

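The values deposited are estimated counts for each gene, not scaled between libraries. The submitters' processing notes name Trimmomatic, STAR 2.7, RSEM and the danRer11 build; annotation, strand setting and options are not given in the sources used here. Per the labels' protocols, total RNA of single larvae was depleted of ribosomal RNA, primed at random and sequenced on an Illumina NovaSeq instrument. RSEM divides reads shared by paralogs, so values of close paralogs are uncertain, as are those of overlapping genes.

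Estimated counts were rounded, filtered with filterByExpr (minimum count 10), scaled with TMM and tested with edgeR 4.0.16 in R 4.3.3 by a robust quasi-likelihood fit on genotype alone, with p-values adjusted by Benjamini-Hochberg over all 21447 rows, with a threshold of 0.05. Each SE is the size of the log2 fold change over the root of its F value. DESeq2 1.42.0, limma 3.58.1 (voom), other scalings and filters, a replicate block and left-out libraries were run as alternatives. The fit was tested on simulated counts with 200 changed genes. Columns of other samples numbered 0.

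The members and lists were chosen with earlier results of these data known. Values per larva are given for members past the threshold, the 4 members of each role with the smallest p, 7 standard markers and members whose groups do not overlap, 23 genes in all. Larvae are separate animals; the labels give no clutch or day, so no pairing was used. No sequences are shown and coordinates are not given.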

Additional observations from a re-analysis of the deposited data

Results flagged for a closer look

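In 8 of 120 groups of 4 larvae (60 genes in 2 genotypes), 1 larva lay far from the other 3 by Dixon's test on CPM; chance flags about 1 in 20 groups. Homozygote 2 was the high larva in 3 of them: ccna2 at 21.9 CPM (others 14.6 to 15.7), aurka at 7.03 CPM (2.77 to 3.20) and birc5a at 5.89 CPM (2.61 to 2.97). e2f8 was high in homozygote 4 at 10.7 CPM (5.50 to 6.13) and prc1b in homozygote 1 at 4.42 CPM (3.73 to 3.83). Among wild-type larvae, gins2 was high in larva 2 at 6.90 CPM (4.55 to 4.83), ccne2 was low in larva 2 at 6.00 CPM (7.17 to 7.29), and tyms was low in larva 1 at 17.6 CPM (22.3 to 22.7).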

How the results depend on the processing

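Over all rows 226 genes passed; the count was 123 with library totals (88 higher, 35 lower), 349 with no filter, 1715 with DESeq2, 136 with limma voom, 3952 without wild-type 1 and homozygote 2, and 38 to 2130 with 1 library left out. Of the members 1 passed; the count was 0 with library totals, 3 with no filter, 5 with DESeq2, 15 without those 2 libraries, and 0 to 10 with 1 library left out. With library totals the medians were 0.167 for DNA synthesis genes, 0.07 for mitotic genes and -0.044 for cyclins. The cyclin median was -0.614 without those 2 libraries. With 1 library left out it ranged from -0.543 to -0.212. Among the 23 named genes, signs turned for mcm2 (0.30), cdk2 (0.14) and e2f8 (0.0919) with library totals. They also turned for mcm2 without wild-type 2 (0.1578, with a range of -0.2606 to 0.1578 over single libraries left out) and for mki67 without homozygote 4 (-0.0554, with a range of -0.0554 to 0.3586). Further members turned as well: 41 of the 60 lay below 0 after TMM scaling and 21 with library totals. Of 391 values of the 23 named genes over the alternatives, 346 kept direction and side of the threshold, 34 passed newly, 6 no longer passed and 5 turned. The causes were not tested. Same-numbered larvae did not deviate together (correlations of -0.107 to 0.052 across genes), and the replicate block gave 333 calls over all rows (72 higher, 261 lower) and 1 member call. The widest SE was that of rrm2 (0.50), counted 7 to 27 times per larva, and the next that of cenpf (0.38), counted 29 to 142 times.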
